A study of Hevea brasiliensis with 2 samples.

Results

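Plants under attack or wounding make a set of defence proteins that act on the cell walls and enzymes of microbes and insects. Beta-1,3-glucanases cut the glucan of fungal walls and the callose of the plant's own walls, chitinases cut chitin, thaumatin-like proteins and osmotins are antifungal proteins, lectins bind sugars, and proteinase inhibitors block the digestive enzymes of attackers. In the rubber tree Hevea brasiliensis, such proteins are stored in lutoids, the vacuole-like bodies of latex, and are set free when lutoids burst after tapping.

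The defence unigenes described here were chosen by words in the best database hits of the unigenes, the assembled transcript sequences of latex. A unigene was taken when its hit in Nr (the non-redundant protein database of NCBI) or in Swissprot contained any of 12 search words for glucanase, chitinase, thaumatin, osmotin, pathogenesis-related protein, lectin, hevein, proteinase inhibitor, latex protein or patatin. Of 29 unigenes with a search word, 6 that also named a kinase or receptor were removed and 23 were kept. Hits are given only within the 6726 of the 51192 unigenes that the authors had called different between the clones. Of these, 4915 have an Nr hit and 2992 a Swissprot hit, and values over all 6726 include those without a hit. So each of the 23 was chosen in part by the difference described here. The differences are therefore given as a description, with no test.

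The study compared latex of clone PR107 with latex of clone RY8-79, which its publication calls CATAS8-79, to learn why latex regeneration and the duration of latex flow differ between them. Each clone had 1 library, made from the pooled latex of 5 virgin trees at tapping 1, with no treatment. The labels give the trees of both clones as 3 years old and the methods give an older age. The 2 clones are different genotypes, and RY8-79 has PR107 among its ancestors. The depth, as reads placed on unigenes and divided by 1000000, was 6.87 for PR107 and 6.92 for RY8-79. No difference could be checked on replicates, and fewer cells of a type and less RNA per cell cannot be told apart. Every interval in the text is a 95% Clopper-Pearson interval and covers counting error only.

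The label of the tissue was checked on search words for latex and leaf proteins, among the unigenes with a hit. Since only unigenes called different carry a hit, a latex protein at a like level in both libraries could not be found this way, and a missing term says nothing of its level. Of 5 latex terms, only small rubber particle protein was found, in 1 unigene. The study's primer list is not limited to unigenes with a call. From it, the rubber transferase Unigene37088 had 6 reads in PR107 and 24 in RY8-79, a log2 ratio (PR107 over RY8-79) of -1.99 (interval -3.57 to -0.66). The latex patatin Unigene37703 had 422 reads in PR107 and 397 in RY8-79. Proteins of photosynthesis gave 18 unigenes, 9 higher in PR107 and 9 higher in RY8-79, with 8078 reads in PR107 and 15356 in RY8-79 together, or 0.118% and 0.222% of all reads. Their part in the differences of the defence unigenes was not tested.

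The name latex defence proteins holds for the 23 unigenes only as far as the search words do. The best Nr hit came from H. brasiliensis itself in 1 of them, small rubber particle protein, which coats rubber particles and is no defence enzyme. The rest resembled proteins of other species, and for 7 of the 23 a search word was in the Swissprot hit alone. They fell into 7 families: 13 glucanases, 2 thaumatin-like proteins, 2 pathogenesis-related proteins, 2 lectins, 2 proteins named for latex, 1 chitinase and 1 patatin-like protein. They were 231 to 1567 bp long with a median of 406 bp, close to the 431.5 bp of all 6726 unigenes with a call.

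The study's primer list holds 2 of the 23 unigenes, and also the latex patatin Unigene37703 that is set beside them further on. The primers are printed as that list gives them, under its names chitinase, beta-1,3-glucanase and Hev b 7 (a latex patatin and allergen). They were not placed on the unigene sequences here. All are 5′ to 3′, in lower case.
Unigene12141 chitinase forward: gcaccacagtaatcagg
Unigene12141 chitinase reverse: ttggctttcacagtttc
Unigene49104 beta-1,3-glucanase forward: aatctgaagaaacggctat
Unigene49104 beta-1,3-glucanase reverse: gtcccgtgaatccaata
Unigene37703 Hev b 7 forward: gctagctcagatatggttgacttcc
Unigene37703 Hev b 7 reverse: tgatgattcttcacccgtcagcgta

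Taken as one set, the defence unigenes leaned to neither clone in number. Of the 23, 11 had a higher RPM (reads divided by the library total and multiplied by 1000000) in PR107 and 12 in RY8-79. Among all 6726 unigenes with a call, 3709 (55.1%) were higher in PR107 by library totals, a share that moves with the scaling as given further on. The reads of the set summed to 3482 in PR107 and 9643 in RY8-79, a log2 ratio of -1.46 (PR107 over RY8-79, interval -1.51 to -1.40). That gap came from a single unigene. Without the thaumatin-like Unigene15324, a check added after the data were seen, the other 22 had 3281 reads in PR107 and 3305 in RY8-79, a log2 ratio of 0.00 (interval -0.07 to 0.07). That even sum holds unequal unigenes. Of the 22, 11 were higher in PR107 and 11 in RY8-79, and the chitinase Unigene12141 alone had 1010 reads in PR107 and 100 in RY8-79. The families are therefore described 1 by 1.

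**Figure D1:**
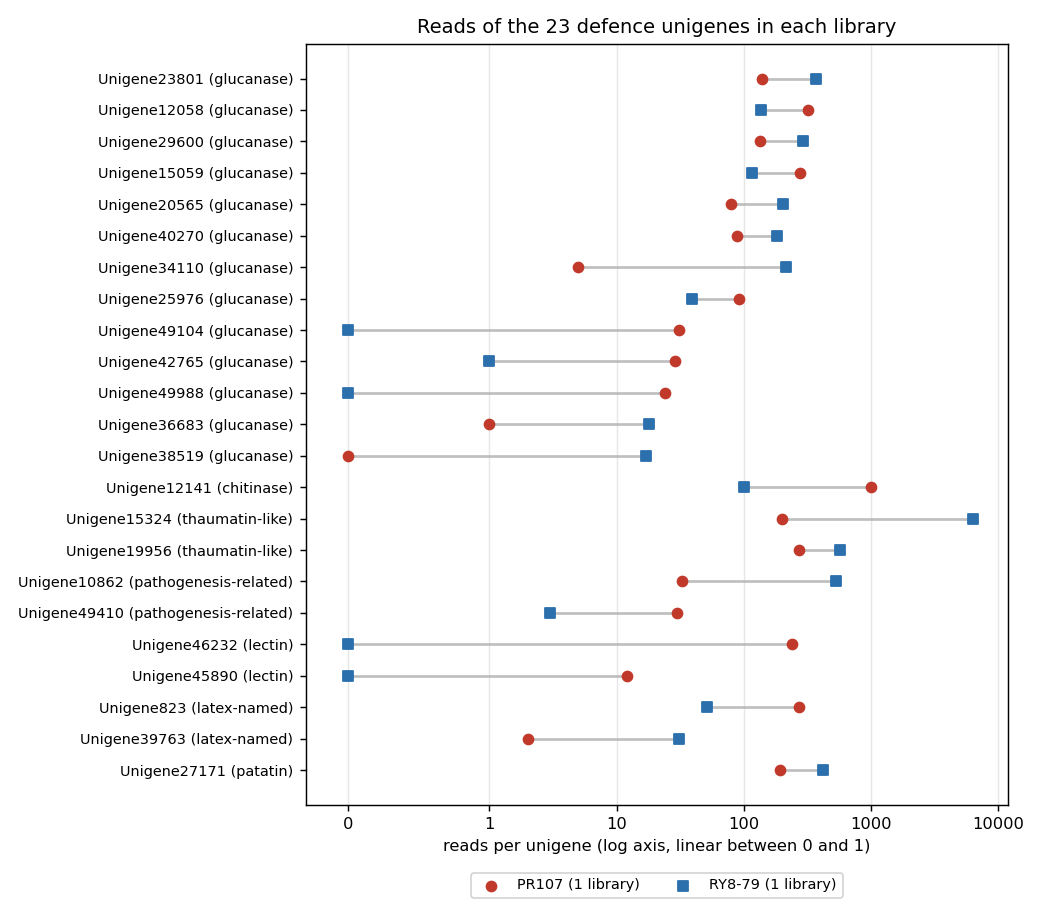
Reads of each of the 23 defence unigenes in PR107 (red circles) and RY8-79 (blue squares), on a log axis that is linear between 0 and 1, ordered by family and by reads within it. The glucanases lie on either side, Unigene15324 has 201 reads in PR107 and 6338 in RY8-79, and Unigene12141 has 1010 and 100.

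Both thaumatin-like unigenes were higher in RY8-79. Unigene15324, whose best hits are a pathogenesis-related thaumatin of poplar and the osmotin-like protein OSM34 of Arabidopsis, had 201 reads in PR107 and 6338 in RY8-79. No other unigene of the 51192 had as many reads in RY8-79, while in PR107 it ranked 9774 by reads. By RPKM it ranked 20 in RY8-79 and 15805 in PR107. Per length its level was 28.98 RPKM (reads per kilobase and 1000000 reads) in PR107 and 907 RPKM in RY8-79, a 31.3-fold higher level in RY8-79 (log2 ratio -4.97, interval -5.18 to -4.77).

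Unigene19956, the other thaumatin-like unigene, is 359 bp long. It had 270 reads in PR107 and 576 in RY8-79, a log2 ratio of -1.08 (interval -1.30 to -0.87). In PR107 it was the more abundant of the pair per length, with 110 RPKM beside the 28.98 RPKM of Unigene15324. In RY8-79 the order was turned round, with 232 RPKM beside 907 RPKM.

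The single chitinase went the other way. Unigene12141 (1043 bp, best hits a chitinase of elm and a bean endochitinase) had 1010 reads in PR107 and 100 in RY8-79. Its level was 141 RPKM in PR107 and 13.9 RPKM in RY8-79, 10.2-fold higher in PR107 (log2 ratio 3.35, interval 3.05 to 3.66). It had more reads in PR107 than any other of the 23. By RPKM it ranked 3090 of all unigenes in PR107 and 23540 in RY8-79, and by reads 811 in PR107 and 16478 in RY8-79.

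The search words would miss a glucanase that both of its hits name otherwise. The 13 glucanases they found were split, with 6 higher in PR107 and 7 higher in RY8-79. Their reads summed to 1219 in PR107 and 1592 in RY8-79, a log2 ratio of -0.37 (interval -0.48 to -0.27). Leaving out Unigene23801, the one with the most reads, gave -0.17. Among those with more than 3 reads in each library, the difference ran from 2.03-fold to 42.7-fold. Unigene12636 and Unigene49389 were also planned for description as unigenes that the study names, but the search words did not take them. Both were higher in PR107, with 265 and 18 reads in PR107 and 133 and 1 in RY8-79. Whether they are glucanases was not settled here, and the split and the sums above leave them out.

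Of the glucanases, 8 had more than 3 reads in each library, and 5 of these were higher in RY8-79. The widest difference was that of Unigene34110 (1397 bp), with 5 reads in PR107 and 215 in RY8-79, 42.7-fold higher in RY8-79 (log2 ratio -5.42, interval -7.05 to -4.17). Unigene23801 (1367 bp) had 139 reads in PR107 and 369 in RY8-79, a log2 ratio of -1.40 (interval -1.69 to -1.11). Both are among the 4 longest of the 23.

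Another 3 glucanases were higher in RY8-79, by 2.03-fold to 2.54-fold. Unigene29600 had 135 reads in PR107 and 291 in RY8-79 (log2 ratio -1.10). Unigene20565 had 80 reads in PR107 and 205 in RY8-79 (log2 ratio -1.35). Per length, Unigene29600 was the highest glucanase in each library, with 60.7 RPKM in PR107 and 130 RPKM in RY8-79, and Unigene20565 came next in RY8-79 with 98.4 RPKM. Unigene40270 had 89 reads in PR107 and 182 in RY8-79 (log2 ratio -1.02, interval -1.40 to -0.65), the smallest difference of the 23. It lay just inside the fold threshold of 2 that the authors' call used, followed by Unigene19956. Unigenes outside that threshold carry no hit, so family members there were not analysed here.

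The 3 well-read glucanases higher in PR107 had nearly the same ratio. Unigene12058 (1567 bp) had 318 reads in PR107 and 138 in RY8-79, a log2 ratio of 1.22 (interval 0.92 to 1.51). Unigene15059 had 276 reads in PR107 and 117 in RY8-79, a log2 ratio of 1.25 (interval 0.93 to 1.57). Unigene25976, whose Nr hit also names the callose-binding X8 domain, had 92 reads in PR107 and 39 in RY8-79, again a log2 ratio of 1.25 but with a wider interval (0.69 to 1.83).

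The other 5 glucanases were read 3 times or fewer in a library, and these were short, 231 to 446 bp. Unigene49104, for which the primers above were made, had 31 reads in PR107 and 0 in RY8-79, at least 10.4-fold higher in PR107 against a floor of 3 reads per library (0.437 RPM in PR107 and 0.434 RPM in RY8-79). Unigene49988 had 24 reads in PR107 and 0 in RY8-79, at least 8.06-fold higher in PR107. Unigene42765 had 29 reads in PR107 and 1 in RY8-79, 29.2-fold higher in PR107 with much counting error (interval of the log2 ratio 2.28 to 10.22). The reverse was seen in the last pair. Unigene38519 had 0 reads in PR107 and 17 in RY8-79, at least 5.62-fold higher in RY8-79, and Unigene36683 had 1 read in PR107 and 18 in RY8-79 (log2 ratio -4.16, interval -9.54 to -1.50). Together these 5 made up 85 glucanase reads in PR107 and 36 in RY8-79, a small part of the family's reads.

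Every glucanase had a Swissprot hit among the glucan endo-1,3-beta-glucosidases of Arabidopsis, a numbered family of wall enzymes, and 9 of the 13 shared their hit with another. Unigenes with 1 hit in common can be pieces or copies of 1 gene, so the reads were also summed by hit. The pair hitting glucosidase 14, Unigene29600 and Unigene20565, were both higher in RY8-79, with 215 reads in PR107 and 496 in RY8-79 together (log2 ratio -1.20, interval -1.43 to -0.96).

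The 3 unigenes hitting glucosidase 11 did not move together. Unigene23801 was higher in RY8-79, while Unigene49104 and Unigene49988 were read in PR107 alone. Summed, they had 194 reads in PR107 and 369 in RY8-79, a log2 ratio of -0.92 (interval -1.17 to -0.66). The summed RPKM pointed the other way, 45.1 in PR107 and 39.0 in RY8-79, because Unigene49104 and Unigene49988 are short.

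The 4 unigenes hitting glucosidase 7 were split evenly. Unigene15059 and Unigene42765 were higher in PR107, and Unigene40270 and Unigene36683 were higher in RY8-79. Their reads summed to 395 in PR107 and 318 in RY8-79, a log2 ratio of 0.32 (interval 0.11 to 0.54). Of these, Unigene42765, Unigene40270 and Unigene36683 also share the Nr hit, a beta-1,3-glucanase-like protein of olive, and summed to 119 reads in PR107 and 201 in RY8-79 (log2 ratio -0.75, interval -1.08 to -0.41). The remaining hits, glucosidases 4, 5, 8 and 12, had 1 unigene each.

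**Figure D2:**
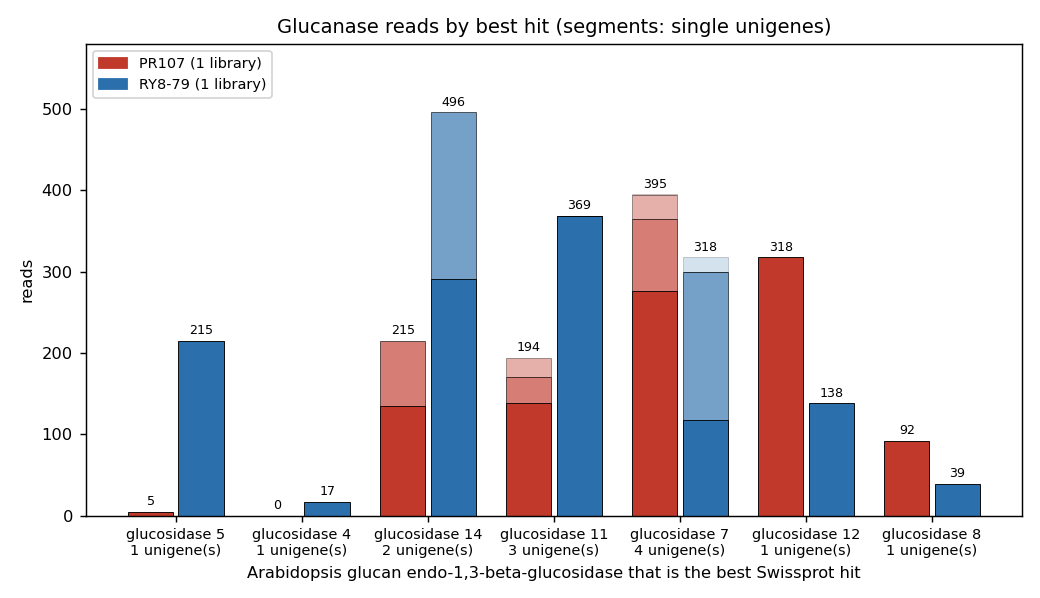
Glucanase reads summed by best Swissprot hit, with PR107 (red) left of RY8-79 (blue), segments for single unigenes and the sum above each bar. The bars of glucosidases 5, 4, 14 and 11 are taller in RY8-79, with 5, 0, 215 and 194 reads in PR107 and 215, 17, 496 and 369 in RY8-79, and those of 7, 12 and 8 are taller in PR107.

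The 2 unigenes grouped as pathogenesis-related differed in what they resemble. Unigene10862 hits a PR-6 type protein of elder in Nr and a protease inhibitor of bitter gourd in Swissprot, and PR-6 proteins are proteinase inhibitors. It had 33 reads in PR107 and 535 in RY8-79, or 11.9 RPKM in PR107 and 192 RPKM in RY8-79, 16.1-fold higher in RY8-79 (log2 ratio -4.01, interval -4.56 to -3.50). It was the only one of the 23 with a hit named protease inhibitor.

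Unigene49410 (259 bp) had 30 reads in PR107 and 3 in RY8-79, a log2 ratio of 3.33 (interval 1.65 to 5.69). Its Nr hit is a pathogenesis-related protein of the PR-1 type from the green alga Volvox, but its Swissprot hit is a zebra forkhead box protein, so the name is doubtful.

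Both unigenes grouped as lectins were read in PR107 alone, while Unigene39763, with a lectin as Swissprot hit only, is described with the latex-named proteins. Unigene46232 (890 bp, hits a lectin precursor of the pagoda tree and an agglutinin of yellowwood) had 239 reads in PR107 and 0 in RY8-79, at least 80.3-fold higher in PR107. Unigene45890, which hits the legume lectin family, had 12 reads in PR107 and 0 in RY8-79, at least 4.03-fold higher in PR107. In RPKM, Unigene46232 reached 39.1 in PR107, similar to the glucanase Unigene20565 there.

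Of the unigenes named for latex, the one that hits small rubber particle protein was higher in PR107. The one that hits a chitin-binding protein was higher in RY8-79. Unigene823, whose best hit is small rubber particle protein (the allergen Hev b 3), had 274 reads in PR107 and 51 in RY8-79, 5.41-fold higher in PR107 (log2 ratio 2.44, interval 2.001 to 2.90). By RPKM it ranked 10939 in PR107 and 29454 in RY8-79. Another unigene of this protein would carry no hit if it had no call, so the ratio is that of Unigene823 alone. Unigene39763 hits a latex protein of mulberry in Nr and a chitin-binding lectin of potato in Swissprot. It had 2 reads in PR107 and 31 in RY8-79, a log2 ratio of -3.94 (interval -7.05 to -1.97).

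The patatin-like Unigene27171 (1543 bp, hit PLP6 of Arabidopsis) had 192 reads in PR107 and 417 in RY8-79, a log2 ratio of -1.11 (interval -1.36 to -0.86). Patatins are storage proteins with lipid acyl hydrolase activity. The latex patatin Hev b 7 is another unigene of the whole table, Unigene37703, named in the primer list and not among the unigenes with a call. It had 422 reads in PR107 and 397 in RY8-79, or 239 RPKM in PR107 and 223 RPKM in RY8-79, a log2 ratio of 0.10 (interval -0.10 to 0.30). In PR107 its level per length exceeded that of all 23 defence unigenes.

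**Figure D3:**
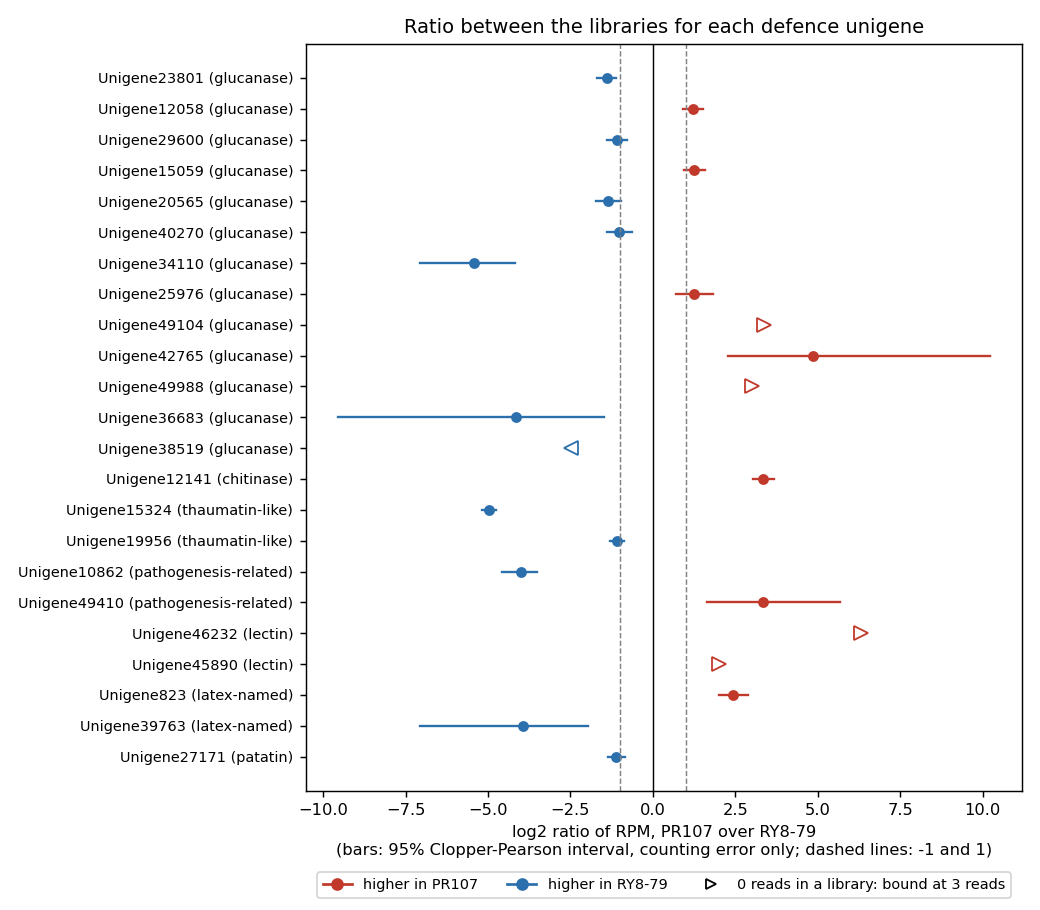
Log2 ratio of RPM, PR107 over RY8-79, of each defence unigene, with 95% Clopper-Pearson intervals for counting error as bars, dashed lines at -1 and 1, and open arrows at the bound for unigenes with 0 reads in a library. Intervals are narrow for Unigene15324 (-5.18 to -4.77) and Unigene12141 (3.05 to 3.66) and wide where a library had 1 or 2 reads.

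The spread of the set was set beside that of all 6726 unigenes with a call. With counts of 3 or fewer put at the floor of 3 reads, the median log2 ratio was -1.02 for the 23 and 1.10 for all, and the median absolute log2 ratio was 2.49 for the 23 and 1.78 for all. A library had 3 or fewer reads for 9 of the 23 (39.1%) and for 1322 of all (19.7%). With 11 unigenes on one side and 12 on the other, the median of the 23 sits at the unigene nearest to the threshold, and it changed sign with the list: it was 0.10 for the 10 unigenes of at least 500 bp and 0.10 for the 16 with a search word in the Nr hit.

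**Figure D4:**
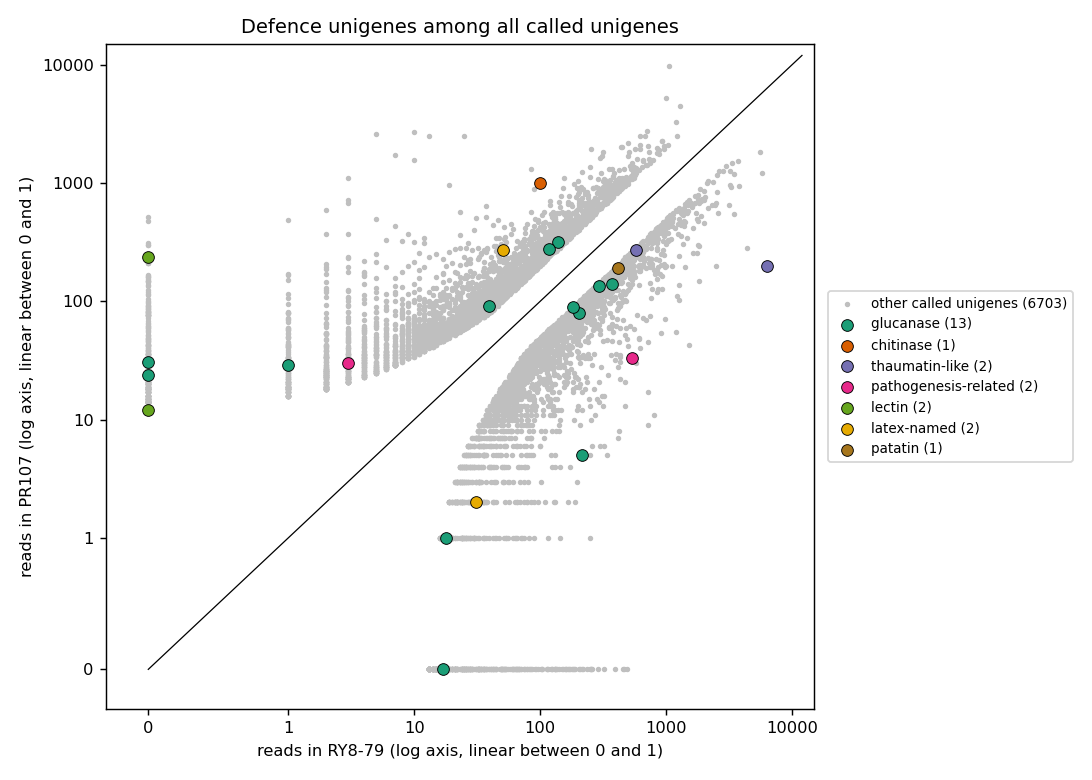
Reads in PR107 (vertical) and RY8-79 (horizontal) of the 23 defence unigenes, coloured by family, among the other unigenes with a call (grey), on log axes that are linear between 0 and 1, with the line of equal reads. Unigene15324 is the point farthest to the right, at 6338 reads in RY8-79 and 201 in PR107.

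In a Fisher's exact test (two-sided) of reads against library totals, run on the whole table, 22 of the 23 passed a false discovery rate of 0.001 and a 2-fold difference, where 12.8% of all 51192 unigenes passed. Of these, 10 were higher in PR107 (7.14% of all unigenes) and 12 were higher in RY8-79 (5.7% of all). The set was drawn from unigenes already called on the same reads, so these counts follow from the choice and nothing is read from them. The unigene that did not pass was the lectin Unigene45890, with 12 reads in PR107 and 0 in RY8-79, and it passed when unigenes with under 10 reads over both libraries were left out, so that all 23 passed. Of all unigenes past both thresholds, 55.6% were higher in PR107 by library totals, 50.3% with TMM scaling and 51.5% with DESeq2 scaling, so the uneven background shares rest on the scaling. Such a test compares these 2 libraries, not the clones, and when an assumed biological coefficient of variation of 0.2 between libraries was put into the exact test of edgeR, 10 of the 23 passed.

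Direction also went with the number of the unigene in the assembly. Of the unigenes with a call, 20.9% of those numbered 30001 to 40000, 79.1% of those numbered 40001 to 50000 and 93.3% of the 494 numbered above 50000 were higher in PR107. None of the 23 lies in the last of these ranges. The 4 defence unigenes of the range from 30001 to 40000 were all higher in RY8-79, namely Unigene34110, Unigene36683, Unigene38519 and Unigene39763. In the range from 40001 to 50000, 6 of 7 were higher in PR107, with Unigene40270 as the exception. All 9 defence unigenes with 3 or fewer reads in a library are numbered from 30001 to 50000. The unigenes numbered up to 30000, with the chitinase, both thaumatin-like unigenes and the PR-6 type protein among them, had 5 higher in PR107 and 7 in RY8-79. The part that the numbering had in the differences was not tested.

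A further list of 27 search words covered other latex and defence proteins. With each unigene counted under the first word that matched it, 12 words held 25 unigenes with a call, 14 higher in PR107 and 11 higher in RY8-79. Of all unigenes with a call, 55.1% were higher in PR107 by library totals. The same limit holds, since all were called on these reads. Dirigent and disease resistance response proteins, which guide lignan and lignin coupling, were higher in PR107 in all 3 cases. All 3 are numbered above 50000, where 93.3% of the unigenes with a call were higher in PR107, so nothing is read from that count. Unigene50926 had 302 reads in PR107 and 0 in RY8-79, at least 101-fold higher in PR107. Unigene51560 had 206 reads in PR107 and 2 in RY8-79, and Unigene51466 had 44 in PR107 and 9 in RY8-79.

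Both polyphenol oxidases, enzymes that brown wounded tissue and latex, were higher in PR107. Unigene24738 had 272 reads in PR107 and 29 in RY8-79 and Unigene924 had 168 in PR107 and 26 in RY8-79. Snakin and gibberellin-regulated peptides, small cysteine-rich proteins of which snakins are antimicrobial, were also higher in PR107 in all 3 unigenes. The snakin-like Unigene19064 had 439 reads in PR107 and 42 in RY8-79 (log2 ratio 3.40, interval 2.94 to 3.89). The profilin Unigene14768, an actin-binding protein of a family that holds latex and pollen allergens, had 211 reads in PR107 and 60 in RY8-79.

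On the other side, all 3 expansins, which loosen cell walls, and both GDSL lipases were higher in RY8-79. The expansins had 133 reads in PR107 and 377 in RY8-79 together. Of the serpins, which are inhibitors of serine proteinases, Unigene13634 had 225 reads in PR107 and 877 in RY8-79 (log2 ratio -1.95, interval -2.17 to -1.74), Unigene31092 was also higher in RY8-79, and Unigene41613 was higher in PR107 with 37 reads in PR107 and 10 in RY8-79. Callose synthases make the glucan that beta-1,3-glucanases cut. Unigene1606, a callose synthase of 4446 bp, had 580 reads in PR107 and 1230 in RY8-79, and the short Unigene20315 had 32 in PR107 and 8 in RY8-79.

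Unigene9278, whose Nr hit is a Bet v I allergen family protein and whose Swissprot hit is the abscisic acid receptor PYL12, had 8 reads in PR107 and 422 in RY8-79. Unigene18691 was found only by the letters of germin in the word germination and is annotated as a protein phosphatase. The germin-like Unigene46148 had 24 reads in PR107 and 2 in RY8-79. Of the enolases, a family that holds the latex allergen Hev b 9, Unigene9800 and Unigene3181 were higher in RY8-79, and Unigene45133 was higher in PR107.

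**Figure D5:**
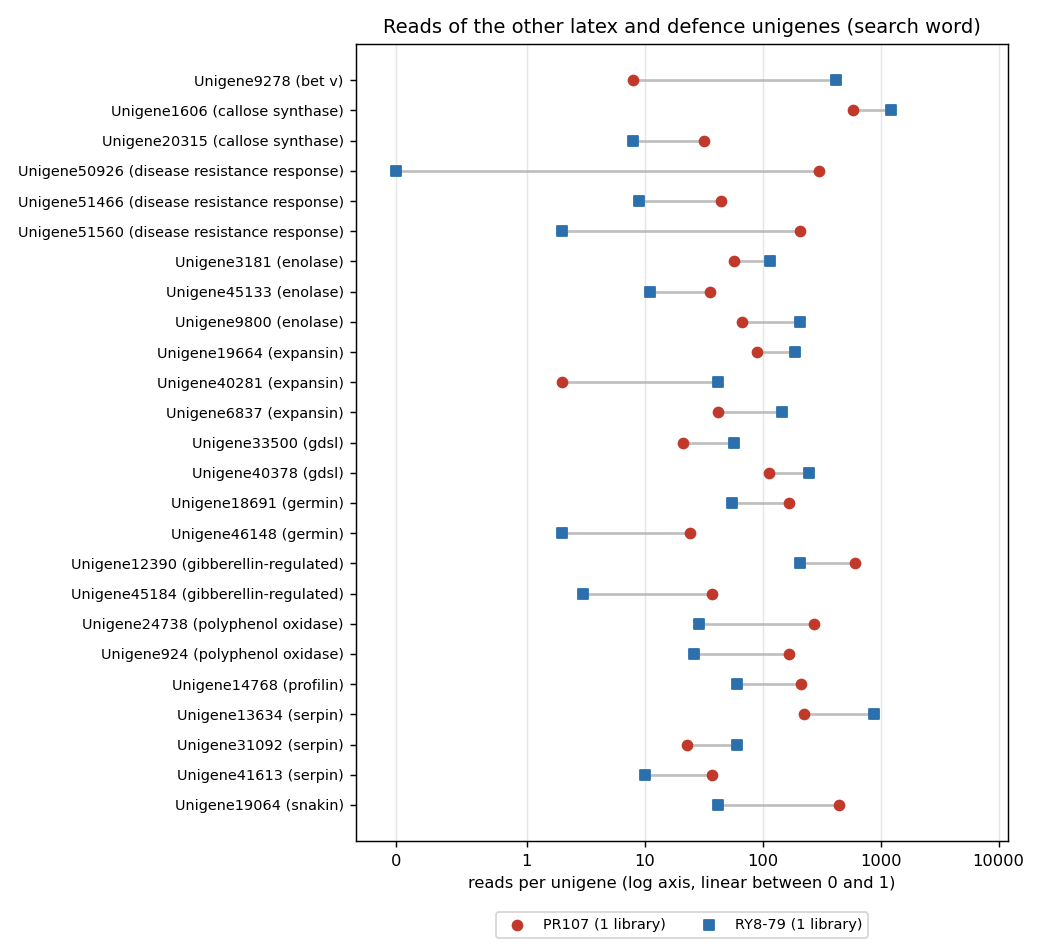
Reads of the 25 other latex and defence unigenes with a call in PR107 (red circles) and RY8-79 (blue squares), labelled with the search word, on a log axis that is linear between 0 and 1. The 3 disease resistance response unigenes and both polyphenol oxidases have more reads in PR107, and the 3 expansins have more in RY8-79.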

How the data were processed

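RNA of latex was sequenced as 1 library per clone. SOAPdenovo (k-mer of 29) was used by the authors to build unigenes, and they deposited raw read counts per unigene and RPKM that were scaled from these counts by unigene length and library total. The submitters' processing notes name a mouse genome build, and no genome coordinates were used here. A second deposited table repeats the values for the called unigenes and adds best BLASTx hits. The authors' log2 ratios, p-values and FDR were not used.

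Groups were taken from the clone label. Families were given by search words, Nr first. Each unigene was tested by Fisher's exact test with Benjamini-Hochberg adjustment over 51192 unigenes. The procedure was tried on simulated reads with counting error only, so spread between trees or libraries was not covered. With 1 library per clone, no quasi-likelihood fit was possible. The alternatives were TMM and DESeq2 scaling, edgeR's exact test at an assumed coefficient of variation, a fold threshold of 4, filters on reads and length, Nr words alone, RPKM sums, and sums without the top unigene. Every unigene could be named, and full values were due for those that the study names, for the best-read and most changed of each family and for families of 5 or fewer. The defence unigenes and lists were chosen with earlier results of these data known. Reads carry no molecular identifiers, so PCR copies count as reads and intervals cover counting error alone. In a table of 50196 RefSeq genes, 0 of the 23 identifiers matched. R 4.3.3 was used with DESeq2 1.42.0 and edgeR 4.0.16, and Python 3.11.15 with scipy 1.17.1, pandas 2.3.3, numpy 2.4.6 and matplotlib 3.10.9.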

Additional observations from a re-analysis of the deposited data

How the results depend on the processing

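Under TMM and DESeq2 scaling the log2 ratios of all 23 unigenes shifted by -0.05 and -0.03, with no change of sign and none below 1 in size, and 22 still passed both thresholds. With an assumed coefficient of variation of 0.2 in the exact test of edgeR, 1515 of all unigenes and 10 of the 23 passed, beside 6577 and 22, and at a fold threshold of 4, 2775 and 13 passed. Higher in PR107 were 6 of 15 unigenes with at least 50 reads over both libraries and 5 of 10 of at least 500 bp, beside 11 of 23. The median log2 ratio was 0.10 in place of -1.02 for unigenes of at least 500 bp and with Nr words alone. For the families, the log2 ratio of the glucanases was -0.21 with Nr words alone and -0.17 without the best-read unigene, beside -0.37. The thaumatin-like sum was -4.97 from 500 bp, -3.04 by RPKM and -1.08 without Unigene15324, beside -3.86. The pathogenesis-related sum was -4.01 from 50 reads and 3.33 without Unigene10862, beside -3.08. The latex-named sum was 2.44 from 50 reads and from 500 bp, 1.25 by RPKM and -3.94 without Unigene823, beside 1.76. The sum of all 23 without Unigene15324 had a log2 ratio of 0.00 (4.6e-04), beside -1.46, a check chosen after seeing the data. The thaumatin-like, pathogenesis-related and latex-named families hold 2 unigenes each, so a sum that leaves out one is the value of the other. The cause of the other shifts was not tested. With unigenes under 10 reads left out, 6722 of all and all 23 passed. The unigenes grouped as lectins were at 0 reads in RY8-79, so their sum gave a bound only. No paired analysis was possible because each clone had 1 library, and for the same reason no replicate was left out.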

Other observations

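The 6 unigenes with a lectin word that were set aside as kinases or receptors are lectin-type receptor kinases by their hits. Of these, 5 had more reads in RY8-79. Unigene34933, an S-locus lectin protein kinase, had 12 reads in PR107 and 195 in RY8-79, a log2 ratio of -4.01 (interval -4.99 to -3.17). Unigene25267, Unigene27862, Unigene39820 and Unigene34499 had 22, 12, 5 and 14 reads in PR107 and 73, 52, 36 and 48 in RY8-79. Unigene3907, a lectin receptor kinase, had 44 reads in PR107 and 14 in RY8-79. The unigenes grouped as lectins, Unigene46232 and Unigene45890, were read in PR107 alone. Unigene39763, grouped as latex-named by its Nr hit, has a lectin as Swissprot hit and had 2 reads in PR107 and 31 in RY8-79. Of the 5 receptor kinases higher in RY8-79, Unigene34933, Unigene39820 and Unigene34499 are numbered 30001 to 40000, as is Unigene39763. In that range 79.1% of the unigenes with a call were higher in RY8-79. Unigene46232 and Unigene45890 are numbered 40001 to 50000, where 79.1% were higher in PR107. Direction thus went with the numbering for the unigenes of these ranges. Unigene25267 and Unigene27862 are numbered 20001 to 30000, where 50.6% of the unigenes with a call were higher in PR107. Unigene3907 is numbered 1 to 10000, where 52.8% were. All were called by the authors on these reads, so no test of the contrast between these groups was made.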
